A study of Mus musculus with 186 samples.

Results

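The p53 pathway was followed through 9 genes in single inner cells of mouse blastocysts. They are Trp53, which encodes p53, and 8 genes that p53 is known to switch on: Mdm2, Cdkn1a, Btg2, Phlda3, Perp, Aen, Gadd45a and Ccng1. They were chosen by name and make up 9 of the 55421 gene rows of the table. All 9 passed the filter on low values, which left 11680 tested genes. The series asks how the kinase PI3K and its effector AKT act on the inner cells while these choose a lineage. The cells came from CD-1 embryos of natural matings, and the labels name no genetic change in any group. Outer cells had been removed by immunosurgery, in which antibody and complement lyse the outer layer. Fresh inner cells came from the stages E3.25, E3.75 and also E4.0, counted in days from mating. The other embryos were collected at E2.75 and cultured in KSOM medium for 16 or 24 h with the vehicle DMSO or with 10 µM LY294002 (LY). LY is an inhibitor of PI3K that is also known to act on other kinases, among them mTOR.

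Values were analysed for 169 cells: 19 at E3.25, 22 at E3.75, 14 at E4.0, 31 each with DMSO and LY at 16 h, and 28 with DMSO and 24 with LY at 24 h. Cells of a group with the same date label, which come from several litters pooled, were taken as 1 experiment. Experiments served as replicates, 2 per fresh stage and 3 per culture group, and p-values measure the spread between them. All values below are TPM, a transcript abundance scaled to a fixed total per cell over genes and spike-in control rows, or levels. A level is the mean over the cells of an experiment of log2(TPM + 1). A cell is called positive at a TPM of 1 or more. Read depth cannot be had from TPM, and between 3806 and 10220 genes were detected in a cell. Pou5f1 was detected in every cell of each group, and Nanog in all but 3 of the 31 cells of 16 h LY (28 positive) and 2 of the 24 of 24 h LY (22 positive). Among trophectoderm genes, which mark outer cells, Elf5 was detected in 2 of 28 cells of 24 h DMSO and in no cell of the other groups, but others of the list were present. Krt8 was detected in 10 of 14 cells at E4.0 and in most cells of every group, Eomes in 9 of 28 of 24 h DMSO (the lowest share) to 9 of 14 at E4.0 (the highest), Gata3 in 13 of 31 cells of 16 h DMSO and 8 of 31 of 16 h LY, and Cdx2 in 8 of 31 and 1 of 31 of these and in 0 to 5 cells of the other groups. The first 16 h DMSO experiment stood apart: it held 3 cells with 9995 detected genes on average, against 7156 and 7102 on the other dates, and its summed trophectoderm TPM was 1096 against 208 in the lowest experiment of that group. LY-treated cells had fewer detected genes than DMSO cells of the same date on every date: 8303, 6384 and 5809 against 9995, 7156 and 7102 at 16 h, and 4556, 6389 and 5373 against 5726, 6668 and 6969 at 24 h.

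p53 is a transcription factor that is held low by Mdm2, a ubiquitin ligase that marks it for degradation and is itself switched on by p53. Damage or stress frees p53 mostly by blocking this loop, so the Trp53 RNA need not change when the protein acts, and the RNAs of its targets are the usual readout. Cdkn1a encodes p21, an inhibitor of cyclin-dependent kinases, Btg2 an antiproliferative partner of the deadenylase complex, and Gadd45a a stress protein of growth arrest and repair. Ccng1 encodes cyclin G1, which feeds back on Mdm2, and Phlda3 a small lipid-binding protein that competes with AKT at the membrane and so ties the p53 pathway to the one LY inhibits. Perp, a membrane and desmosome protein, and Aen, a nuclease, are better known for cell death and adhesion than for arrest.

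p53 binds pairs of a 10-base motif, and the stretches that hold such a motif just upstream of the starts of 4 of these genes are shown as the sequence feature that p53 is known to read. Each is 30 bases from RefSeq (GRCm38.p6), 5′ to 3′ on the gene's strand, with the motif in capitals. Cdkn1a holds 2 motifs, at chr17:29090896-29090925 and chr17:29090918-29090947, Trp53 holds 1 at chr11:69580274-69580303, Mdm2 holds 1 at chr10:117710925-117710954 (minus strand) and Ccng1 holds 1 at chr11:40755452-40755481 (minus strand).
Cdkn1a, 73 to 64 bases upstream: tcctgggtggGGACTAGCTTtctggccttc
Cdkn1a, 51 to 42 bases upstream: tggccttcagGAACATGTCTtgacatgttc
Trp53, 75 to 66 bases upstream: acccacggaaGGACTTGCCCttacttgtta
Mdm2, 186 to 177 bases upstream: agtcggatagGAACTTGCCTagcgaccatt
Ccng1, 185 to 176 bases upstream: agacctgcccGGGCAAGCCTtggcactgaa
The motif searched is the p53 decamer by name, which reads the same on both strands, over the 250 bases before each start. Windows were found for 8 of the 9 genes, all but Perp, and 6 of these 8 held a match, Aen and Gadd45a being the other two. A match was present for 8.2% of the 27025 genes searched, and 0.259% of all windows held 2 or more, as the first window of Cdkn1a did. Window 2 of Cdkn1a, at chr17:29093519-29093768, held 0. None was found for Btg2 and Phlda3 in this window. A match is a description of the letters and not of binding.

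All 9 are protein-coding genes, placed here by GENCODE on GRCm38. Btg2 (chr1:134075170-134079120) and Phlda3 (chr1:135766119-135769136) lie on the same chromosome. Cdkn1a spans chr17:29090976-29100727, Ccng1 chr11:40748552-40755311, Mdm2 chr10:117688875-117710758, Perp chr10:18845020-18857073 and Aen chr7:78895854-78911209. Trp53 (chr11:69580359-69591873) has a processed pseudogene in the table, Trp53-ps, which reached a TPM of 0.54 at most in any cell; how reads shared with the copy were divided is not known. Gadd45a (chr6:67035096-67037457) overlaps the antisense gene E230016M11Rik by 859 bases. That gene was positive in 1 of the 169 cells, where Gadd45a was positive too. Whether counting used strand is not stated in the labels, so reads of the overlap are uncertain. Cdkn1a overlaps AC167363.2, a gene model on the opposite strand that was not used here.

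The main question is whether LY changed these RNAs. At 16 h and at 24 h, 0 of the 9 genes passed the threshold (limma on experiment means, Benjamini-Hochberg adjusted p under 0.05), and neither did any other gene: 0% of the 11680 tested genes were called at 16 h and 0% at 24 h. At an unadjusted p under 0.05 there were 641 genes at 16 h and 615 at 24 h, of which 2 and 2 were among the 9. What follows is therefore a description of levels and their spread. The level of the median gene was lower with LY, by a difference of -0.33 at 16 h and -0.20 at 24 h, while the median difference of the 9 genes was -0.06 and 0.53. Quantile normalization, which gives every experiment the same distribution, moved the median gene to 0.01 and 0.03. Beside the 16 h values, all 11 tested trophectoderm genes were below 0 with LY (median -0.80), with a summed TPM of 208 to 1096 with DMSO and 164 to 282 with LY and Elf5 under a TPM of 1 in every cell of both arms. At 24 h 6 of the 11 were above 0 (252 to 432 and 284 to 389 TPM). Their part in the values of the 9 genes was not tested. The collection dates pair the arms, and 5 of the 9 genes (Cdkn1a, Btg2, Phlda3, Perp and Ccng1) were higher with LY on at least 5 of the 6 dates, where 438 of the 11680 tested genes (3.8%) were. Gadd45a was lower on 5 of 6 dates, as were 32.2% of tested genes. This count of dates was added after the values were seen.

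**Figure D1:**
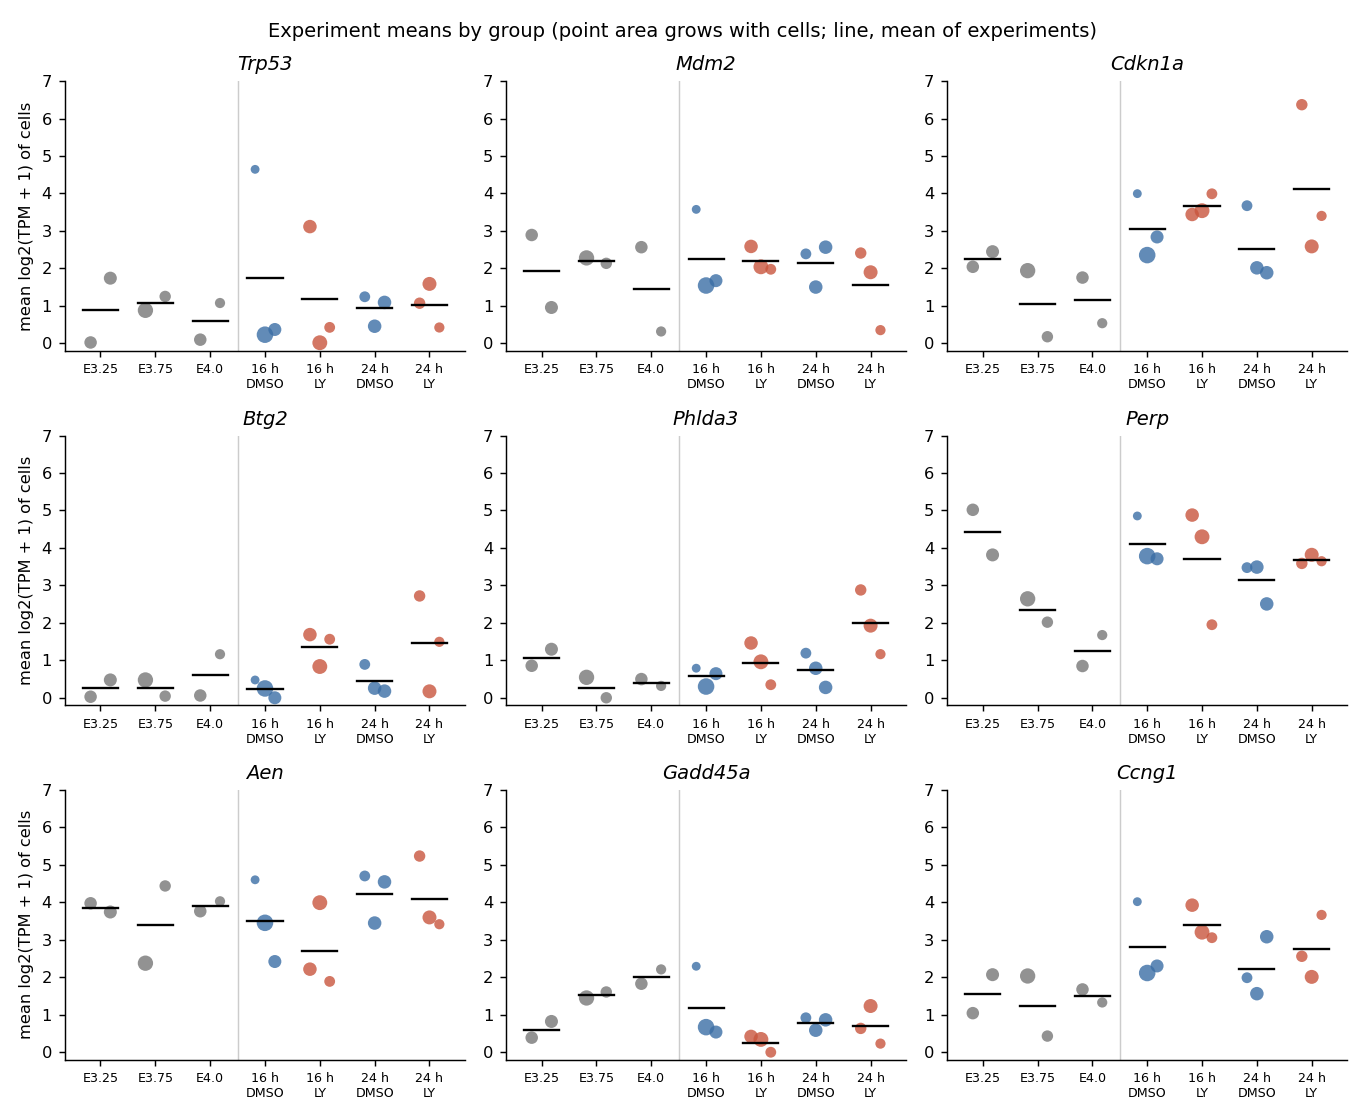
Level of each gene (mean log2(TPM + 1) of the cells of an experiment, y axis) in the 7 groups (x axis); each point is 1 experiment, its area grows with the number of cells, and the line is the mean of the experiments. Cdkn1a is at 2.59 to 6.37 in the 24 h LY experiments and at 1.88 to 3.67 with DMSO, Perp is at 0.85 and 1.67 at E4.0, and Trp53 is above 2 only in both arms of the first 16 h date.

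Trp53 RNA itself was sparse. It was positive in 48 of the 169 cells. At 16 h its level was 4.64, 0.23 and 0.37 with DMSO on the 3 dates and 3.12, 0.02 and 0.43 with LY. The first date was high in both arms: all 3 DMSO cells and 10 of 11 LY cells were positive there, against 3 of 28 DMSO cells and 1 of 20 LY cells on the other two dates. At 24 h the level was 1.24, 0.46 and 1.09 with DMSO and 1.07, 1.59 and 0.42 with LY, and the ranges overlapped. The LY minus DMSO difference was -0.56 ± 0.89 (SE) at 16 h and 0.10 ± 0.89 at 24 h (limma adjusted p = 0.919 and 0.998). Without both arms of the first date the 16 h difference was -0.08.

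Mdm2, whose product marks p53 for degradation, overlapped between the arms. Its level was 3.57, 1.54 and 1.67 with DMSO and 2.59, 2.04 and 1.98 with LY at 16 h, and 2.39, 1.5 and 2.57 with DMSO and 2.41, 1.90 and 0.35 with LY at 24 h. The ranges overlapped at both times, and the lowest value came from the third 24 h LY experiment, where 1 of 5 cells was positive. The differences were -0.06 ± 0.74 at 16 h and -0.60 ± 0.74 at 24 h (limma adjusted p = 0.992 and 0.953). The 16 h sign was not stable: after quantile normalization the difference was 0.46. The mean share of cells at a TPM of 10 or more was 29.7% with LY and 20% with DMSO at 16 h (exact permutation p = 0.4). It was lower with LY at 24 h, at 15.1% against 29.3% (exact permutation p = 0.2).

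Cdkn1a, the p21 gene, was higher with LY on 5 of 6 dates. At 16 h its level was 3.99, 2.35 and 2.84 with DMSO and 3.44, 3.54 and 3.99 with LY. The first date ran the other way, and the ranges overlapped. At 24 h it was 3.67, 2.01 and 1.88 with DMSO and 6.37, 2.59 and 3.40 with LY: LY was above DMSO on each date, but the lowest LY experiment lay below the highest DMSO one. The difference was 0.59 ± 0.82 at 16 h and 1.59 ± 0.82 at 24 h (limma unadjusted p = 0.48 and 0.0669, adjusted p = 0.906 and 0.899). Without the first LY experiment the 24 h difference was 0.47. Within sequencing runs 1 and 2 the 24 h difference was 2.36 and 1.21, but the 16 h difference was 0.83 and -0.02. Without both arms of the first 16 h date the 16 h difference was 1.17.

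Single cells separate how many held Cdkn1a RNA from how much they held. At 16 h, 23 of 31 DMSO cells and 24 of 31 LY cells were positive, and the median TPM of the positive cells was 11.5 and 23.8. At 24 h, 17 of 28 and 17 of 24 were positive, with medians of 8.55 and 36.6. Averaged over experiments, the positive share at 16 h was lower with LY, at 75.7% against 82.2% (exact two-sided permutation p = 0.7). It was 70.8% with LY and 61.6% with DMSO at 24 h (p = 0.5 in the same test). A TPM of 10 or more was reached by 12 of 31 DMSO cells (38.7%, exact Clopper-Pearson 95% interval 21.9% to 57.8%) and 20 of 31 LY cells (64.5%, 45.4% to 80.8%) at 16 h. At 24 h it was reached by 8 of 28 (28.6%, 13.2% to 48.7%) and 14 of 24 (58.3%, 36.6% to 77.9%). Cells of a date share their source, and these intervals cover counting error only. By experiment, the share at 16 h was 66.7%, 27.8% and 50% with DMSO and 63.6%, 64.3% and 66.7% with LY, and at 24 h 50%, 18.2% and 27.3% against 85.7%, 41.7% and 60%. These shares gave an exact two-sided permutation p of 0.4 at 16 h and 0.2 at 24 h, where 0.1 is the smallest that 3 against 3 allows.

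Btg2, the antiproliferative gene, was scarce outside LY culture. It was positive in 30 of the 169 cells, 19 of them treated with LY. At 16 h its level was 0.47, 0.25 and 0 with DMSO and 1.69, 0.83 and 1.56 with LY. Every LY experiment was above every DMSO experiment, which held for 1 of the 9 genes at this time and for 1.35% of all tested genes. The difference was 1.12 ± 0.47 (limma unadjusted p = 0.0265, adjusted p = 0.854). At 24 h its level was 0.89, 0.26 and 0.18 with DMSO and 2.72, 0.17 and 1.49 with LY, so that on the second date LY was not above DMSO and the ranges overlapped. The 24 h difference was 1.02 ± 0.47 (limma unadjusted p = 0.0414, adjusted p = 0.899). Within sequencing runs 1 and 2 the differences were 1.66 and 0.17 at 16 h and 0.66 and 0.61 at 24 h. Without the first LY experiment the 24 h difference was 0.39, and without the second it was 1.66. At 16 h, 2 of 31 DMSO cells and 13 of 31 LY cells were positive, and at 24 h 3 of 28 and 6 of 24 were. By experiment the 16 h shares were 33.3%, 5.56% and 0% with DMSO and 54.5%, 35.7% and 33.3% with LY (difference 28.2 percentage points, exact permutation p = 0.2).

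Phlda3, which encodes the lipid-binding rival of AKT, was higher with LY on each 24 h date. Its level there was 1.19, 0.79 and 0.28 with DMSO and 2.88, 1.92 and 1.16 with LY. The lowest LY experiment lay just below the highest DMSO one, so the ranges overlapped. The difference was 1.24 ± 0.43 (limma unadjusted p = 0.0084, adjusted p = 0.899), with 0.90 and 0.93 in the sequencing runs, and Phlda3 ranked 97 of the 11680 genes by p. At 16 h its level was 0.79, 0.30 and 0.64 with DMSO and 1.46, 0.96 and 0.35 with LY, and the difference was 0.35 ± 0.43 (limma adjusted p = 0.897). All 8 of the positive 24 h LY cells reached a TPM of 10, with a median of 61 among them, while 2 of the 5 positive DMSO cells did. The mean share of positive cells at 24 h was 32.1% with LY and 17.7% with DMSO (exact permutation p = 0.2). The ranges of this share overlapped, as 27.3% of cells were positive in the second DMSO experiment. The share of cells at a TPM of 10 or more at 24 h was 16.7%, 9.09% and 0% with DMSO and 42.9%, 33.3% and 20.0% with LY, which do not overlap, as for 1 of the 9 genes and 1.87% of tested genes, and give the smallest exact permutation p of 0.1; this overlap was counted after the values were seen.

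Ccng1, the cyclin G1 gene, was higher with LY on 5 of 6 dates, by 0.45 to 1.09, and was at -0.09 on the first 16 h date. Its level at 16 h was 4.02, 2.11 and 2.30 with DMSO and 3.93, 3.20 and 3.06 with LY, and at 24 h 1.99, 1.56 and 3.08 with DMSO and 2.56, 2.01 and 3.66 with LY. The ranges overlapped at both times. The differences were 0.58 ± 0.68 and 0.53 ± 0.68 (limma adjusted p = 0.892 and 0.954). Leaving out 1 experiment gave 0.23 (without the second DMSO) to 1.19 (without the first DMSO) at 16 h and 0.07 (without the third LY) to 0.97 (without the third DMSO) at 24 h. Within sequencing runs 1 and 2 the difference was -0.01 and 0.94 at 16 h and 0.04 and 0.15 at 24 h. A TPM of 10 or more was reached by 7 of 31 DMSO cells (22.6%, exact 95% interval 9.59% to 41.1%) and 19 of 31 LY cells (61.3%, 42.2% to 78.2%) at 16 h. By experiment these shares were 66.7%, 16.7% and 20.0% with DMSO and 81.8%, 50% and 50% with LY, with an exact permutation p of 0.3. At 24 h the pooled shares were 25% and 33.3%. The mean share of positive cells was 86.7% with LY and 78.9% with DMSO at 16 h (exact permutation p = 0.5). It was lower with LY at 24 h, at 60.4% against 64.6% with DMSO (exact permutation p = 0.7).

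**Figure D2:**
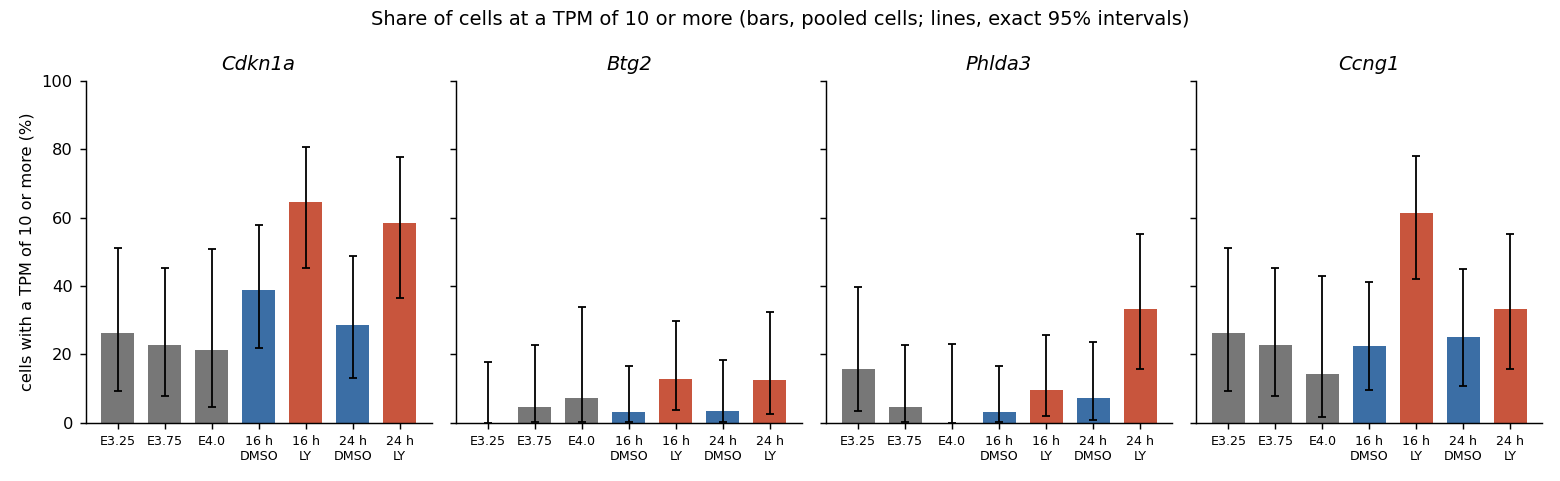
Share of cells with a TPM of 10 or more (y axis, %) for Cdkn1a, Btg2, Phlda3 and Ccng1 in the 7 groups (x axis); bars pool the cells of a group and lines are exact 95% intervals, which cover counting error only. For Cdkn1a the bars stand at 64.5% with LY and 38.7% with DMSO at 16 h and at 58.3% and 28.6% at 24 h, and for Phlda3 at 33.3% and 7.14% at 24 h. Of the genes not drawn, Aen was lower with LY at both times, Gadd45a at 16 h and Mdm2 at 24 h (16.7% against 28.6%). Trp53 was higher with LY at both times, Mdm2 at 16 h, and Perp and Gadd45a slightly at 24 h. Perp was equal in both arms at 16 h.

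Gadd45a, Perp and Aen complete the set. Gadd45a, the stress gene of growth arrest, was 2.29, 0.67 and 0.54 with DMSO and 0.42, 0.34 and 0 with LY at 16 h. Every LY experiment was below every DMSO experiment, as for 8.84% of tested genes, and the difference was -0.91 ± 0.43 (limma unadjusted p = 0.0445, adjusted p = 0.854). Without both arms of the first date it was -0.43. The mean share of positive cells at 16 h was 10.8% with LY and 45.6% with DMSO (difference -34.7 percentage points, exact permutation p = 0.2). All 3 cells of the first DMSO experiment were positive. At 24 h Gadd45a was 0.92, 0.59 and 0.86 with DMSO and 0.64, 1.23 and 0.23 with LY, with a difference of -0.09 ± 0.43 (limma adjusted p = 0.996) and no gene of the 9 among the 8.64% of tested genes whose LY experiments were all below DMSO.

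Perp, the desmosome gene, was 4.85, 3.78 and 3.71 with DMSO and 4.88, 4.30 and 1.95 with LY at 16 h. The third LY experiment was low, with 3 of 6 cells positive, and the difference was -0.41 ± 0.69, which turned to 0.47 without that experiment. At 24 h Perp was 3.47, 3.49 and 2.5 with DMSO and 3.59, 3.82 and 3.64 with LY. Every LY experiment was above every DMSO one, which held for 1 of the 9 genes and for 2.26% of tested genes, by a difference of 0.53 ± 0.69 (limma adjusted p = 0.926 at 16 h and 0.954 at 24 h). This separation did not hold throughout: in run 1 alone the 24 h difference was -0.67, in run 2 it was 0.79, and the mean share of positive cells was 68.8% with LY and 79.3% with DMSO (exact permutation p = 0.5). Aen, the nuclease gene, was positive in 139 of 169 cells and split the dates evenly, 3 higher and 3 lower with LY. It was 4.60, 3.45 and 2.42 with DMSO and 2.22, 3.99 and 1.89 with LY at 16 h, and 4.70, 3.45 and 4.55 with DMSO and 5.24, 3.60 and 3.42 with LY at 24 h. Its differences were -0.79 ± 0.75 and -0.15 ± 0.75 (limma adjusted p = 0.875 and 0.996). The mean share of cells at a TPM of 10 or more was lower with LY at both times. It was 41.6% against 60% at 16 h and 62.5% against 67.7% at 24 h (exact permutation p = 0.6 and 0.8).

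**Figure D3:**
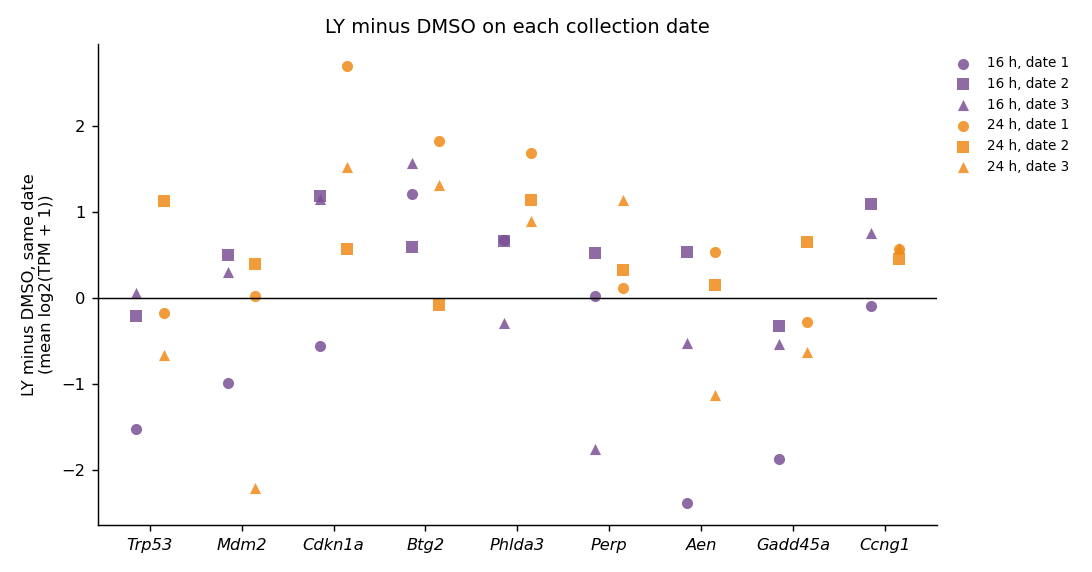
LY minus DMSO of the same collection date (y axis, difference in mean log2(TPM + 1)) for each gene (x axis); each point is 1 date, with the culture time by colour and the date by shape. Btg2 and Phlda3 each have 5 points above 0, Cdkn1a reaches 2.7 on the first 24 h date, and Gadd45a has 5 points below 0.

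Both times were also averaged, in a contrast added after the values were seen. Here 0 of the 9 genes and 0% of tested genes passed the limma threshold, with 2 of the 9 and 1032 of all genes at an unadjusted p under 0.05. Btg2 had a mean difference of 1.07 ± 0.33 (unadjusted p = 0.0041, adjusted p = 0.531, rank 86 of 11680) and Phlda3 one of 0.79 ± 0.30 (adjusted p = 0.534). Cdkn1a stood at 1.09 ± 0.58, Ccng1 at 0.56 ± 0.48 and Gadd45a at -0.50 ± 0.30. With the date as a replicate block the adjusted p of Btg2 was 0.146 and that of Phlda3 0.179. Cells had been sequenced in 2 runs, and within each run the mean difference kept its sign for these genes: 1.16 and 0.39 for Btg2, 0.42 and 0.57 for Phlda3, 1.59 and 0.59 for Cdkn1a, 0.01 and 0.54 for Ccng1, and -0.92 and -0.38 for Gadd45a in runs 1 and 2. With the number of detected genes per cell as a covariate it was 0.93 for Btg2, 0.85 for Phlda3, 0.84 for Cdkn1a and 1.01 for Ccng1, but -0.09 for Gadd45a. None of these genes passed the threshold with the covariate. The part of detected genes in these values was otherwise not tested. The effect of LY was not shown to differ between the times: 0 of the 9 genes and 0% of tested genes passed the test of that difference, none of the 9 had an unadjusted p under 0.05 (291 of all genes did), and the smallest among the 9 was 0.15, for Phlda3 (0.89 ± 0.60). It was 1.00 ± 1.17 for Cdkn1a and 0.82 ± 0.60 for Gadd45a.

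Cells that carried several of these RNAs were counted next. Cells in which at least 2 of Cdkn1a, Btg2 and Phlda3 reached a TPM of 10 were 6 of 31 with LY at 16 h. There were 0 of 31 with DMSO, where the exact interval used above allows a share of up to 11.2%. This limit covers counting error only, as cells of a date share their source. The counts at 24 h were 7 of 24 cells with LY and 1 of 28 with DMSO. By date these were 3 of 11, 1 of 14 and 2 of 6 LY cells at 16 h, and 3 of 7, 2 of 12 and 2 of 5 at 24 h, so each of the 6 LY experiments held at least 1 such cell and 1 of the 6 DMSO experiments did. In fresh embryos there were 2 of 19 cells at E3.25, 1 of 22 at E3.75 and 0 of 14 at E4.0. The 3 genes were picked after their values were seen, so these counts describe these cells and carry no test. Counted over all 9 genes, a cell of 16 h LY had 3.10 genes at a TPM of 10 or more on average and one of 16 h DMSO 2.16, with 2.96 and 2.32 at 24 h. Weighting experiments equally brings these closer at 16 h, to 3.02 ± 0.57 (SD of 3 experiments) and 2.79 ± 1.63, and gives 2.99 ± 0.63 and 2.42 ± 0.65 at 24 h. The experiments were 3.64, 2.93 and 2.5 with LY and 4.67, 2.0 and 1.7 with DMSO at 16 h, so the first DMSO experiment was the highest.

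**Figure D4:**
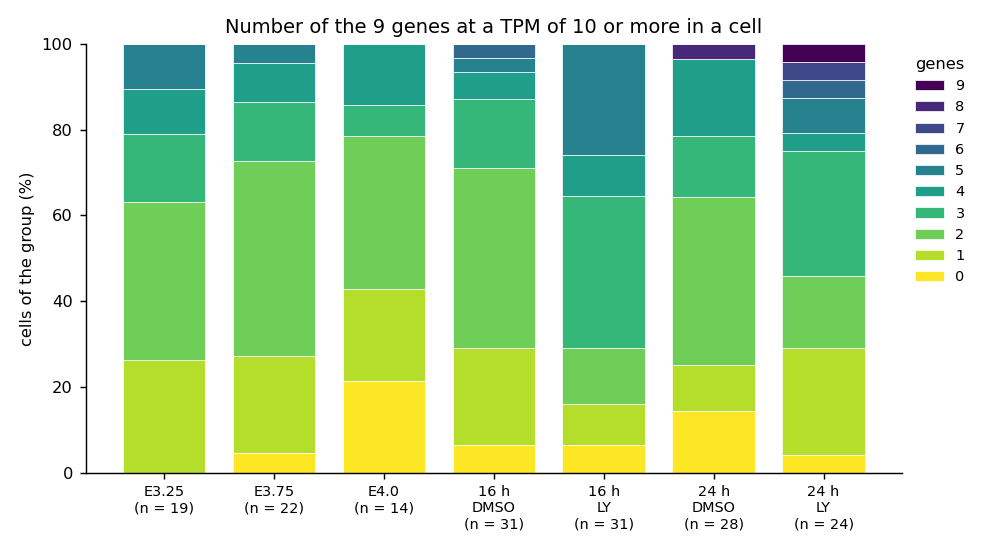
Share of the cells of a group (y axis, %) by the number of the 9 genes at a TPM of 10 or more in the cell (colour), for the 7 groups (x axis, with the number of cells). Cells with 7 or more are a 24 h DMSO cell with 8 and 2 cells of 24 h LY with 7 and 9.

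A few cells carried most of the 9 genes at once. Of the 169 cells, 5 had 6 or more of the 9 genes at a TPM of 10 or more, against a median of 2. A single cell of the first 24 h LY date had all 9: Cdkn1a at a TPM of 488, Aen at 215, Mdm2 at 125, Btg2 at 103, Phlda3 at 93.4, Ccng1 at 66.8, Perp at 52.9, Gadd45a at 20.9 and Trp53 at 19.6. Of the death genes that p53 is known to induce, it held 118 TPM of Bbc3 (Puma) and 5.85 of Bax, and it had 4950 detected genes. Another profile of that experiment, which shares its cell name with a second column, had 6 genes, with Btg2 at 491, Ccng1 at 227 and Phlda3 at 181, and Trp53 at 0.32. DMSO culture on the same date gave a cell with 8 of the genes, Cdkn1a at 542 and Phlda3 at 123 among them, while Trp53 was listed at 0. Trp53 was thus under a TPM of 1 in 2 of these 3 cells. It was higher in the other cells with 6 or more genes. A 24 h LY cell of the second date had 7 genes and Trp53 at 18.2, and a 16 h DMSO cell of the first date had 6 and Trp53 at 37.4. The cells were picked for their values and carry no test. Of 30 other p53 targets, the 3 cells described first had 6, 9 and 11 at a TPM of 10 or more. The 24 h LY cell of the second date had 8 and the 16 h DMSO cell 9. The median cell had 7 and no cell more than 11. Of the 30 targets, 20 passed the filter on low values. By the count of other targets, the 3 cells described first ranked 90, 10 and 1 of the 169. The 24 h LY cell of the second date ranked 32 and the 16 h DMSO cell 10, with ties given the same rank.

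Without LY, the fresh stages give the course of these genes in the embryo. From E3.25 to E4.0, 0 of the 9 genes passed the limma threshold, where 1.67% of tested genes (195) did; 2 of the 9 and 1502 of all genes had an unadjusted p under 0.05. Perp came nearest. Its level was 5.02 and 3.81 at E3.25, 2.64 and 2.02 at E3.75 and 0.85 and 1.67 at E4.0, each stage below the one before without overlap, as for 1 of the 9 genes and 1.43% of tested genes. The difference was -3.15 ± 0.85 (limma adjusted p = 0.0655), and it passed the threshold when TPM was averaged before the log (-3.59, adjusted p = 0.012), after quantile normalization (-3.39, 0.0153), with detected genes as a covariate (-3.74, 0.0136) and with experiments weighted by cells (-3.24, 0.0406). It did not pass in the other alternatives, in which the adjusted p was 0.0525 to 0.715, with 0.398 in the fit of these stages alone. Within the sequencing runs it was -2.19 and -3.91. Perp was positive in 16 of 19, 12 of 22 and 5 of 14 cells. The summed TPM of 15 trophectoderm genes was 347 to 406 at E3.25 and 143.09 to 143.14 at E4.0. Elf5 and Tfap2a were under a TPM of 1 in every cell of both stages. Of the 11 tested genes, 7 were below 0 and 4 above (median -0.01), none past the threshold. Krt8 was at -2.72 and Krt18 at -3.00, while the level of Lgals3 was 3.26 and 1.54 at E3.25 and 4.81 and 4.69 at E4.0. The part of the trophectoderm genes in the level of Perp was not tested.

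Gadd45a ran the other way through the fresh stages. Its level was 0.39 and 0.82 at E3.25, 1.45 and 1.61 at E3.75 and 1.83 and 2.21 at E4.0, each stage above the one before without overlap, as for 1 of the 9 genes and 2.34% of tested genes, and 4 of 19, 8 of 22 and 8 of 14 cells were positive. The difference from E3.25 to E4.0 was 1.41 ± 0.52 (limma unadjusted p = 0.0134, adjusted p = 0.231), with 0.81 and 1.83 within sequencing runs 1 and 2. Cells of E4.0 had more detected genes, 7459 ± 315 (SD of 2 experiments) against 6235 ± 223, and more RNA of 15 primitive endoderm genes, whose summed TPM was 539 to 974 against 147 to 258. The mean level of 15 epiblast genes was also higher at E4.0, at 4.30 against 3.57. Their summed TPM overlapped, at 661 to 1051 against 734 to 1489. Whether any of these bears on Gadd45a was not tested. Cdkn1a (-1.10 ± 1.01) and Phlda3 (-0.67 ± 0.52) had differences near their errors. Cdkn1a was 2.04 and 2.45 at E3.25, 1.94 and 0.18 at E3.75 and 1.75 and 0.54 at E4.0.

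Culture in DMSO was compared with fresh stages of near age and between its times, but the groups were collected on different dates, so culture, time and date cannot be told apart. Against E3.25, 16 h DMSO gave 0 of the 9 genes and 0.0514% of tested genes (6) past the limma threshold, with 0 of the 9 and 1599 of all genes at an unadjusted p under 0.05. Ccng1 was the member nearest to it, at 1.26 ± 0.76. Against E3.75, 24 h DMSO gave 0 of 9 and 0% (370 genes, none of the 9, at an unadjusted p under 0.05), with Cdkn1a at 1.47 ± 0.92. Between 24 h and 16 h DMSO it was 0 of 9 and 0.00856% (1 gene), with 1268 genes and none of the 9 at an unadjusted p under 0.05, and Perp at -0.96 ± 0.69. Over all 7 groups at once, the F test called 0 of the 9 and 1.92% of tested genes, while 4 of the 9 (Perp, Cdkn1a, Phlda3 and Gadd45a) and 1892 of all genes had an unadjusted p under 0.05. Ordered by the mean level of a group, Cdkn1a ran from 24 h LY (4.12 ± 1.99, SD of 3 experiments) over 16 h LY (3.66 ± 0.29), 16 h DMSO (3.06 ± 0.84), 24 h DMSO (2.52 ± 1.00) and E3.25 (2.24 ± 0.29) to E4.0 (1.15 ± 0.86) and E3.75 (1.06 ± 1.25). Neighbours in this order differed by less than the larger of their SDs, except E3.25 and E4.0, whose difference of -1.10 ± 1.01 did not pass (limma adjusted p = 0.717).

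Other genes of the pathway were read in the same fit. Of 24 listed regulators of p53, 18 were tested and none passed the threshold at either time, with a median difference of -0.62 at 16 h and -0.23 at 24 h beside -0.33 and -0.20 for all genes. The smallest p at 16 h belonged to Atm (-0.84 ± 0.41), Hipk2 (-0.87 ± 0.46) and Chek1 (-1.27 ± 0.69), kinases that signal to p53. At 24 h it belonged to Hipk2 (-1.60 ± 0.46, limma unadjusted p = 0.0021, adjusted p = 0.899), Chek2 (1.05 ± 0.56) and Atr (0.45 ± 0.32). Of 30 other targets, 20 were tested, 0 passed, 7 were above 0 at 16 h and 11 at 24 h, and the medians were -0.14 and 0.02. The smallest p at 16 h were those of Tigar (-1.34 ± 0.62), Ak1 (-0.47 ± 0.42) and Pml (-0.78 ± 0.74), and at 24 h those of Ei24 (1.78 ± 0.70), Pml (-1.51 ± 0.74) and Rps27l (-1.28 ± 0.65).

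Relatives of the 9 genes and the G1 machinery that p21 acts on were examined in the same way. Of 15 paralogs, 8 were tested and 0 passed at either time, with medians of -0.27 and -0.07. Btg3 (-0.51 ± 0.35), Phlda1 (-0.67 ± 0.60) and Gadd45g (0.69 ± 0.70) had the smallest p at 16 h, and Phlda2 (-0.78 ± 0.59), Cdkn1b (0.32 ± 0.41) and Btg1 (-0.37 ± 0.48) at 24 h. Of 15 G1 cyclins, kinases, RB proteins, E2F factors and E2F targets, 9 were tested and 0 passed. All 9 were below 0 at 16 h and 5 of 9 at 24 h, with medians of -0.61 and -0.01 beside -0.33 and -0.20 for all genes. Ccne1, the cyclin of S phase entry, was at -1.41 ± 0.57 at 16 h (limma unadjusted p = 0.021) and -0.57 ± 0.57 at 24 h, Cdc25a at -0.80 ± 0.58 and Cdk2 at -0.85 ± 0.67 at 16 h, and Pcna at -1.66 ± 0.80 and E2f1 at -0.84 ± 0.73 at 24 h. Of 16 genes of replication and mitosis, all were below 0 at 16 h (median -0.67) and 12 at 24 h (median -0.53), none past the threshold. The mean level of the 16 was 4.67 to 5.99 in the 16 h DMSO experiments and 3.78 to 5.25 with LY, so the ranges overlapped. The highest was the first DMSO experiment, with its 3 cells. The 16 h counts below 0 of both lists were not repeated without that experiment. Between E4.0 and E3.25, 2 of the 20 tested other targets passed, beside 1.67% of all tested genes, and none of the tested regulators, paralogs and G1 genes did: Sfn, a p53 target of epithelia, fell (-3.51 ± 0.75, limma adjusted p = 0.0138), and Ak1, an adenylate kinase, rose by 2.17 ± 0.52 (adjusted p = 0.0314). The call of Ak1 was lost in 11 of its 18 alternatives and that of Sfn in 5, among them the fit of these stages alone (adjusted p = 0.398 for Sfn).

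Over the 18 experiment means, the genes most like each member were found among all tested genes as a description. The highest Pearson r was 0.95 for Trp53 with Glb1l and 0.88 with Plpp3. Perp was nearest to Wwtr1 (0.87), the gene of the Hippo effector TAZ, and Stmn3 (0.84), and Ccng1 to Esrp1 (0.88) and Mgat2 (0.87). Gadd45a was nearest to Msrb2 (0.89) and Zfp553 (0.87), Cdkn1a to Slc35e4 (0.84) and Pard6b (0.82), Phlda3 to Sqstm1 (0.82) and Dand5 (0.82), and Btg2 to Pheta1 (0.80) and Grb7 (0.75). The nearest of Mdm2 were Gm8524 (0.79) and Atp6v0c-ps2 (0.77) and those of Aen Smarce1-ps1 (0.79) and Oaz1-ps (0.78), of which those with names ending in -ps are pseudogenes with uncertain values. Among the 9 themselves over the same experiments, Cdkn1a had an r of 0.73 with Phlda3, 0.70 with Btg2 and 0.64 with Ccng1, and one of -0.43 with Gadd45a, while Trp53 had 0.46 at most (with Ccng1). The experiments share dates and treatments, so these values have no p.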

How the data were processed

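RNA of single inner cells was copied from its 3′ polyA end, amplified and sequenced on a NextSeq instrument in 2 runs, per the labels' protocols. The authors deposited a table of TPM per gene and cell, summing to a fixed total in each cell with its 92 spike-in control rows. Those rows were left out and the gene values were not rescaled, so these need not sum to the same total. The part of the spike-in rows in the levels was not tested. The submitters' processing notes name bcl2fastq 2.20.0, cutadapt 2.9, STAR 2.7.9a, RSEM 1.3.3 and mm10, with no annotation. TPM keeps no depth, so no counting limits on levels can be given, and it compares a gene across cells rather than genes with each other. Of 186 labelled samples, 170 had a column and 16 were not analysed here. Of 2 pairs of columns sharing a cell name, the E3.25 pair (r = 0.824) was averaged. The other, in the first 24 h LY experiment, correlated less with itself (0.594) than with another cell (0.724) and was kept as 2 cells, giving 169. Cells were picked singly, so no doublet caller was run. Mitochondrial RNA was 0.362% to 32.5% per cell and no cell was dropped for it.

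A gene was kept where 25% or more of the cells of some group reached a TPM of 1. Means of log2(TPM + 1) over the cells of each of 18 experiments were fitted for all 7 groups together with limma 3.58.1 (R 4.3.3; eBayes with trend, 11 residual degrees of freedom), and p-values were Benjamini-Hochberg adjusted over all tested genes. Shares of cells were compared by two-sided exact permutation tests (SciPy 1.17.1); over the 18 tests at a TPM of 1 the adjusted values were 0.741 to 0.8. A limma fit of the same form, coded separately, was tried on simulated experiment means with known changes. Named genes are all members, their 2 nearest genes by Pearson r, list genes past the threshold and the 3 of smallest p per list and LY comparison. Members and lists were chosen with earlier results of these data known. Arms of a culture time share their 3 dates by label; experiments of the same date correlated after removal of group means by 0.393, 0.121 and 0.317 at 16 h and 0.231, 0.120 and 0.0732 at 24 h. Alternatives were the pseudocount, filter, scaling, covariates, weights, runs, date block and left-out experiments.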

Additional observations from a re-analysis of the deposited data

How the results depend on the processing

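With the date as a replicate block, 0 genes passed in the 4 LY comparisons, as without it, and no call of the 9 genes changed; at an unadjusted p under 0.05 there were 1413 genes at 16 h and 1334 at 24 h (limma). Of the values of the 9 genes under alternatives, 954 kept direction and side of the threshold, 42 reversed and 4 passed it, all 4 of them Perp from E3.25 to E4.0. Averaging also the second pair of columns with a shared cell name, added after seeing the data, gave 24 h LY differences of 1.86 for Cdkn1a, 1.11 for Btg2 and 1.34 for Phlda3 and changed no call of the 9. The cause of the changes below was not tested.

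The LY difference reversed as follows. At 16 h, Mdm2 became 0.037 with a pseudocount of 10, 0.42 with the log of the mean TPM, 0.46 with quantile normalization, 0.37 with the detected-gene covariate, 0.44 with weights and 0.40 without the first date. Perp became 0.11 with quantiles, 0.19 with the covariate and 0.19 with weights, and Trp53 0.79 with the covariate and 0.49 with weights. Without the first date Aen was 0.0038 and Ak1 0.083. The covariate gave 0.016 for Ak1, 0.027 for Cdk2 and 0.14 for Pml. At 24 h, Gadd45a became 0.014 with a pseudocount of 10, 0.064 with the log of the mean, 0.16 with quantiles, 0.27 with the covariate, 0.083 with weights and 0.18 in run 2. Aen became 0.15 with the log of the mean and 0.22 with quantiles. In run 1 alone, Ccng1 was -0.014 and Phlda3 -0.069 at 16 h, and Perp -0.67, Trp53 -0.53 and E2f1 1.29 at 24 h. In run 2, Cdkn1a was -0.023 and Phlda1 0.19 at 16 h. With the log of the mean, the difference of LY effects was -0.37 for Cdkn1a, and Ccng1 was -0.023 for 16 h DMSO against E3.25.

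Leaving out 1 experiment gave -0.42 to 0.59 for Mdm2, -1.53 to 0.89 for Trp53, -0.99 to 0.47 for Perp and -0.87 to 0.17 for Ak1 at 16 h. At 24 h it gave -0.73 to 0.18 for Aen, -0.36 to 0.14 for Gadd45a, -1.03 to 0.0015 for Mdm2 and -0.18 to 0.40 for Trp53. The difference of LY effects for Cdkn1a ranged from -0.12 (without the first 24 h LY experiment) to 1.77.

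Counts of called genes moved too. For 16 h DMSO against E3.25 the 6 became 13 with a pseudocount of 10, 17 unfiltered, 12 with the stricter filter (5916 genes, 4 of the 9 members), 10 with quantiles, 1 with the covariate, 30 with weights, 49 with these groups alone, 0 in run 1, 24 in run 2, 1 without the first date, and 0 to 52 without 1 experiment. For 24 h against 16 h DMSO the 1 became 2 with a pseudocount of 0.1, 3 unfiltered, 5 with the stricter filter, 0 with quantiles, 0 with the covariate, 11 with weights, 0 with these groups alone, 0 in run 1, 0 in run 2, and 0 to 8 without 1 experiment. For 24 h DMSO against E3.75 the 0 became 7 unfiltered, 1 with the log of the mean, 1 in run 2 and 0 to 5 without 1 experiment. For E4.0 against E3.25 the 195 became 89 with the stricter filter, 129 with the log of the mean, 0 with these groups alone, 12 in run 1, 384 in run 2 and 70 to 304 without 1 experiment. Its split of 164 higher and 31 lower was 129 and 71 with quantiles and 125 and 79 with the covariate. The 0 members called there became 1 with the log of the mean, with quantiles, with the covariate and with weights. For LY at 16 h the 0 became 1 with a pseudocount of 10, 2 unfiltered, 1 with the log of the mean, 1 with weights, 1 in run 1 and 0 to 2 without 1 experiment. The F test's 224 became 126 with the log of the mean, 9 in run 1 and 399 in run 2. The mean LY effect had 0 to 1 calls without 1 experiment.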

Other observations

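Across the 169 cells, after removal of experiment means, the RNAs of these genes were only weakly related. Pearson r was highest, at 0.37, for Btg2 with Phlda3 and with Ccng1. It was 0.34 for Mdm2 with Btg2 and for Cdkn1a with Perp, and Trp53 had -0.03 to 0.21 with the others. Cells share experiments, libraries and depth, and these values carry no p. The number of detected genes had an r of 0.31 with Cdkn1a and 0.29 with both Ccng1 and Mdm2. The mean level of the trophectoderm genes had one of 0.29 with Cdkn1a, 0.18 with Ccng1 and 0.32 with Mdm2. The small number of cells per experiment, 3 to 18, limits every mean given here.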
